A study of Mus musculus with 4 samples.

Results

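Excitation-contraction coupling is the chain of events by which an action potential on a muscle fibre releases calcium and starts contraction. The 10 genes described here encode parts of that chain: Ryr1, Fkbp1a, Casq1 and Casq2 of the calcium release unit, Cacna1s, Cacnb1 and Cacng1 of the dihydropyridine receptor, the calcium pumps Atp2a1 and Atp2a2, and the muscle chloride channel Clcn1. Members were all probe sets whose single gene symbol in the platform's gene table is one of these names. They were 11 probe sets of 9 genes, out of 8251 genes with a single symbol. No probe set of the table used here carries Cacnb1 as its single symbol, so the receptor's beta subunit was not measured. Clcn1 and Atp2a1 had 2 probe sets each and the other 7 genes had 1.

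Total RNA of mouse skeletal muscle was hybridised to 4 expression arrays, 2 coded J in their titles (replicates 1a and 1c) and 2 coded NJ (replicates 1a and 1d). All titles share the code Ctr and a time of 0 h. The series is titled after the neuromuscular junction, and the codes J, NJ and Ctr are not spelled out in the labels, which give no strain, age, sex or treatment. Whether the arrays stem from different animals is not stated, so the p-values below measure only the spread between these arrays, which may be technical.

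In a resting fibre, calcium is stored in the sarcoplasmic reticulum, where calsequestrin binds it near the release channels. When the membrane is depolarised at the transverse tubule, the dihydropyridine receptor acts as voltage sensor and opens the ryanodine receptor through direct contact. Calcium then flows into the cytosol, and the SERCA pumps return it to the store. Fast fibres rely mainly on calsequestrin 1 and SERCA1, while slow fibres and heart use more calsequestrin 2 and SERCA2. Chloride flow through the muscle chloride channel steadies the resting membrane potential of the fibre.

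The RNA carried the transcripts of skeletal muscle on all 4 arrays. Of 8 skeletal muscle markers 5 were measured, and their summed deposited signal was 73379 to 317179 in J against 183521 to 217083 in NJ. The array J 1c stood apart at its bright end: its highest signal was 41086, against 125534 to 231943 on the other 3 arrays. Fast fibre contractile genes, 10 of 10 measured, had a summed signal of 152389 on J 1c against 585241 to 1012620 on the other arrays. The columns of both 1a arrays carry full digits and those of J 1c and NJ 1d 1 decimal, which may mark separate processing. J 1a and NJ 1a are called the full-digit pair and J 1c and NJ 1d the rounded pair. Values below are deposited signals for single arrays, and differences are J minus NJ of quantile normalised log2(signal + 32), each ± the limma fit's standard error. This scale understates the change of dim probe sets. Signals of different probe sets are not levels per transcript and are not compared with each other.

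No member differed between J and NJ past the test. For 6 of the genes, Ryr1, Fkbp1a, Casq1, Cacna1s, Cacng1 and Clcn1, the tested difference lay between −0.13 and 0.10, with 95% intervals that reached down to −1.50 and up to 1.24. The larger tested differences belonged to Casq2 and the calcium pumps. Of the 10 member probe sets bright enough to test, 5 were higher in J and 5 lower, while 49.2% of all 9316 probe sets tested were higher. The median difference was 0.03 for the members and −0.01 over all of them. Limma called 0 members higher and 0 lower in J at an adjusted p under 0.05 (Benjamini-Hochberg), where the background was 0.0% in each direction. At an unadjusted p under 0.05 limma gave 1 member higher, a probe set of Atp2a1 that lost this without quantile normalisation, and 0 lower. The background at that threshold was 1.25% higher and 0.88% lower. Both J arrays lay above both NJ arrays for 2 members (background 13.6%) and below them for 0 (background 12.9%). The median absolute difference was 0.11 over the members and 0.39 over all probe sets tested, with a median standard error of 0.48 and 0.73. With 2 arrays in each group the smallest two-sided p of an exact permutation test is 0.333.

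**Figure D1:**
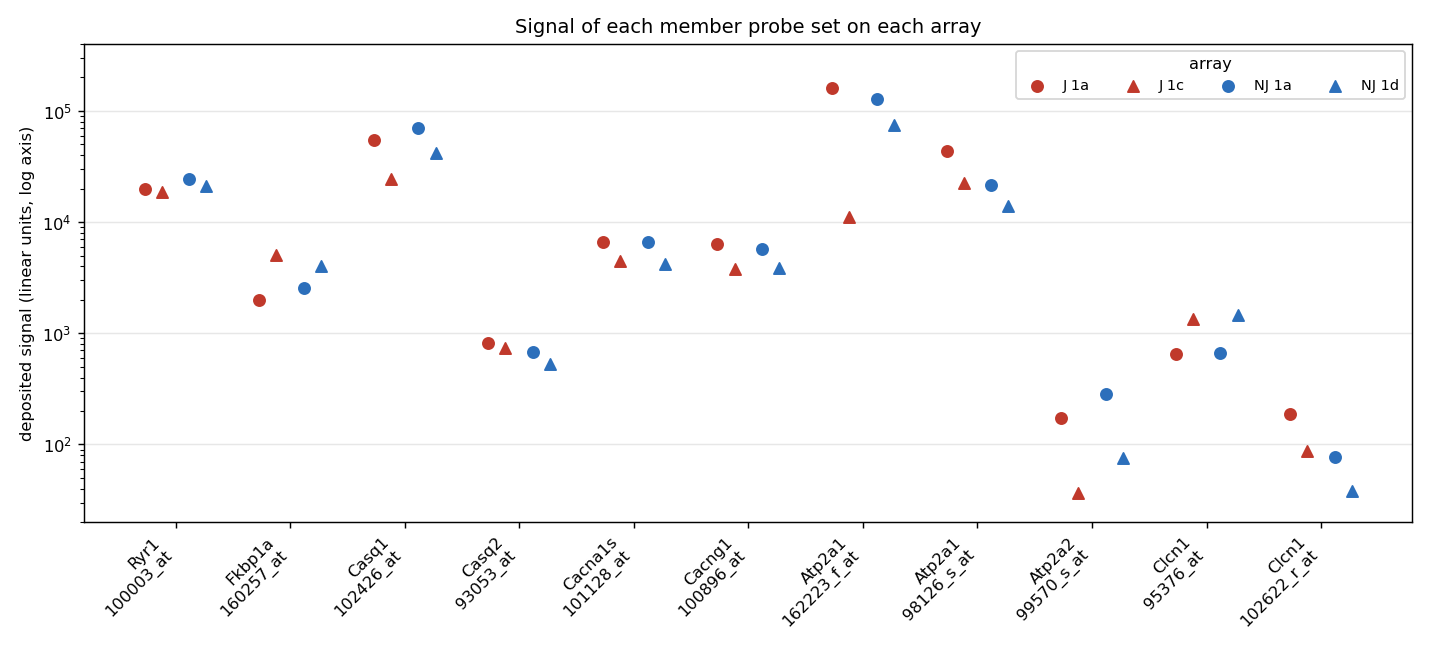
Deposited signal (log axis) of the 11 member probe sets on each of the 4 arrays, J in red left of NJ in blue, with circles for the 1a arrays and triangles for J 1c and NJ 1d. Atp2a1 (162223_f_at) has a signal of 11053.5 on J 1c, below its other arrays at 75452 to 161901.

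Ryr1, the calcium release channel of the sarcoplasmic reticulum, had signals close to each other on all arrays. They were 19676 and 18584 on the J arrays against 24567 and 20979.5 on the NJ arrays (probe set 100003_at). As deposited, both J arrays thus lay below both NJ arrays. After quantile normalisation the groups overlapped, with means of 14.43 ± 0.26 in J and 14.34 ± 0.21 in NJ (log2, SD, n = 2 each). The difference was 0.09 ± 0.40 (limma adjusted p = 0.9998), with a 95% interval of −0.82 to 0.99. Its sign depended on the scaling, since it was −0.25 without normalisation between arrays and −0.31 with each array centred on its median.

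Fkbp1a encodes FKBP12, a small immunophilin that binds the ryanodine receptor and steadies its closed state. Its signals were 1985 and 5041 on the J arrays against 2545 and 4065 on the NJ arrays (160257_at). The higher array of each group was the one that is not 1a, and the groups overlapped fully. The difference was −0.01 ± 0.47 (95% interval −1.08 to 1.05), made of −0.35 in the full-digit pair and 0.33 in the rounded pair.

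Casq1, the calsequestrin of fast fibres, had signals of 54952 and 24478.5 on the J arrays against 70633 and 42119.9 on the NJ arrays (102426_at). J 1c was the lowest of the 4 arrays, and it was also the array with the lowest summed signal of fast fibre genes. After quantile normalisation both J arrays had a value of 15.43 because the probe set held the same brightness rank on them, and the NJ mean was 15.44 ± 0.51 (log2, SD, n = 2). The difference was −0.02 ± 0.48 (95% interval −1.09 to 1.06). It was −0.57 without normalisation between arrays and −0.63 with each array centred on its median, and the part of the lower bright end of J 1c in these values was not tested.

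Casq2, the calsequestrin of slow fibres and heart, was 1 of the 2 tested members whose groups did not overlap. Its signals were 813 and 738 on the J arrays against 683 and 527 on the NJ arrays (93053_at). The normalised means were 9.65 ± 0.05 in J and 9.33 ± 0.13 in NJ (log2, SD, n = 2 each), a difference of 0.31 ± 0.55 or 1.24-fold (limma adjusted p = 0.9998, 95% interval −0.93 to 1.56). It was 0.26 in the full-digit pair and 0.36 in the rounded pair, and stayed between 0.21 and 0.41 with each array left out. The standard error exceeds the spread of these arrays because the fit shrinks variances toward those of equally bright probe sets. Slow fibre contractile genes, 7 of 7 measured, had a summed signal of 3855 to 7092 in J against 4915 to 5463 in NJ. Cardiac markers, also 7 of 7 measured, summed to 10877.5 to 13169 in J against 15990.2 to 21462 in NJ. Most of that sum was Actc1, the cardiac alpha actin, with 10731 and 9355 on the J arrays against 19041 and 14534 on the NJ arrays, at a probe set whose suffix _f_at marks probes shared within a gene family. Nppa, the atrial natriuretic peptide, went the other way, at 1502 and 941.5 on the J arrays against 966 and 746 on the NJ arrays. Myh6, the atrial and adult mouse ventricular myosin, was near the dim end at 79.2 and 26.3 on the J arrays against 265 and 31.7 on the NJ arrays. The part of fibre type or heart-like transcripts in the Casq2 values was not tested, and in such bulk RNA fewer fibres of a type and less RNA per fibre cannot be told apart.

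Promoter sequences of RefSeq (GRCm38.p6), 250 bases before and 50 after the gene's start, were found for 7 of the 9 measured genes. Those of the calsequestrins are given as the fast and slow pair whose ratio is compared further on. They are Casq1, chr1:172219846-172220145 on the minus strand, and Casq2, chr3:102086165-102086464 on the plus strand, each written 5′ to 3′ along the gene. Capitals mark the E-box CAGCTG, a site type bound by the myogenic bHLH factors, and the MEF2 consensus.
Casq1: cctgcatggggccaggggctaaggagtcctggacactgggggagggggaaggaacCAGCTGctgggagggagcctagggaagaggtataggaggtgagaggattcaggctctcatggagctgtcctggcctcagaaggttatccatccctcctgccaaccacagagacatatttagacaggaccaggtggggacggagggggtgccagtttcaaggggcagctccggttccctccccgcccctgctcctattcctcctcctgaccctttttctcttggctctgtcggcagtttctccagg
Casq2: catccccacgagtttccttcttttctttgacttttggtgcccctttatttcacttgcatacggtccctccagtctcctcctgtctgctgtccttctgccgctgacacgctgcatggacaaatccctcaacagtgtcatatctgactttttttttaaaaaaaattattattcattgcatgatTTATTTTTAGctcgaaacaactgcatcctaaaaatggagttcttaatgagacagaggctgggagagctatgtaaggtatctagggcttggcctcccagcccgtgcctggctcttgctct
The capitals in Casq1 are a CAGCTG match that begins 195 bases before the start, and those in Casq2 a MEF2 match that begins 69 bases before it. The search covered both strands for the general E-box CANNTG, for its form CAGCTG, for the core TATAAA of the TATA box, and for the MEF2 and CArG box consensus sequences. Every CAGCTG is also a CANNTG. Of all 32851 promoters in the table, 16.3% hold the form CAGCTG, 72.3% any E-box, 3.19% the MEF2 consensus, 13.6% the TATA core and 1.63% the CArG box. Among the 7 members' promoters 4 hold CAGCTG (Casq1, Atp2a1, Cacna1s and Fkbp1a), 2 the MEF2 consensus (Casq2 and Clcn1), 6 any E-box, 1 the TATA core and 0 the CArG box. A match is only a run of letters and says nothing of binding.

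Cacna1s and Cacng1 encode subunits of the dihydropyridine receptor, the voltage sensor of the transverse tubule. Both had nearly equal signals in J and NJ when arrays of the same number format are set side by side. Cacna1s, the pore-forming alpha subunit, had signals of 6682 and 4452 on the J arrays against 6556 and 4172 on the NJ arrays (101128_at). Cacng1, the gamma subunit of skeletal muscle, had 6378 and 3808 on the J arrays against 5759 and 3868 on the NJ arrays (100896_at). In both genes the 1a arrays were the high ones and J 1c and NJ 1d the low ones, so the groups overlapped. The difference was 0.10 ± 0.43 for Cacna1s (95% interval −0.87 to 1.07) and 0.08 ± 0.44 for Cacng1 (95% interval −0.90 to 1.07). In the full-digit pair Cacna1s differed by 0.07, and in the rounded pair by 0.12. For Cacng1 these values were 0.18 and −0.02.

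The promoter of Cacna1s, chr1:136052561-136052860 on the plus strand, is given because this gene and Cacng1 had the most alike profiles of all member pairs. In capitals is its CAGCTG match, which begins 123 bases before the start.
Cacna1s: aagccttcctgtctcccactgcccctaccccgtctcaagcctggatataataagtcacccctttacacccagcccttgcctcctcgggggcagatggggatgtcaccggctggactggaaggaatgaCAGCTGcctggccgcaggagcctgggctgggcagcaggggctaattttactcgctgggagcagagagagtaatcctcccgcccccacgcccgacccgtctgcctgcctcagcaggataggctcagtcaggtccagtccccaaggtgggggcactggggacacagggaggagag

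The calcium pumps gave the largest differences among the tested member probe sets, and the 2 probe sets of Atp2a1 went in opposite directions. Atp2a1 encodes SERCA1, the pump that returns calcium to the store in fast fibres. At probe set 98126_s_at its signals were 43825 and 22667 on the J arrays against 21780.1 and 13926 on the NJ arrays. Both J arrays were above both NJ arrays, and each exceeded the NJ array of its own number format. The normalised means were 15.18 ± 0.03 in J and 13.95 ± 0.51 in NJ (log2, SD, n = 2 each). The difference was 1.23 ± 0.43 or 2.35-fold, with a 95% interval of 0.26 to 2.20. It did not pass limma over all probe sets (unadjusted p = 0.018, adjusted p = 0.9998), where it ranked 44 of 9316 by p. It was 0.85 in the full-digit pair and 1.61 in the rounded pair, and stayed between 0.85 and 1.53 with each array left out. The difference depended on the scaling, since it was 0.86 ± 0.57 without normalisation between arrays (limma unadjusted p = 0.162) and 0.79 ± 0.56 with each array centred on its median (0.195). The unadjusted p was 0.063 without the variance trend and 0.243 without NJ 1d. With a term for the number format in the fit, the limma adjusted p was 0.444.

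At probe set 162223_f_at Atp2a1 had signals of 161901 and 11053.5 on the J arrays against 129180 and 75452 on the NJ arrays. J 1a was the highest of the 4 arrays and J 1c the lowest. The difference was −1.27 ± 0.81 (95% interval −3.10 to 0.57, limma adjusted p = 0.9998). It was −0.03 in the full-digit pair, −2.50 in the rounded pair, and 0.20 without J 1c. Tnnc2, the troponin C of fast fibres, was low on the same array, at 145820 and 1301 on the J arrays against 120147 and 29568 on the NJ arrays (162325_f_at). In the rounded pair the fast fibre list had a median difference of −0.72, with Tnnc2 lowest at −4.26, Myh1 and Tnnt3 at 0 and Tnni2 at 0.22. The values of 0 arose because Myh1 and Tnnt3 each held the same brightness rank on J 1c and NJ 1d. Without normalisation between arrays, the rounded pair differed by −1.70 for Myh1, −1.61 for Tnnt3 and −0.01 for Tnni2. For the 29 probe sets above a signal of 50000 on the other arrays, the median ratio of J 1c to the lowest other array was 0.386. That of Atp2a1 was 0.146. All of them had to be lower on J 1c, because its highest signal was 41086, so only the sizes of the ratios can be read. In the manufacturer's naming, the suffix _f_at marks probes shared within a gene family and _s_at probes shared by several transcripts. Either Atp2a1 probe set may thus also report a related transcript. Which of them follows the SERCA1 transcript was not tested, and the data give no single direction for Atp2a1.

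The promoter of Atp2a1, chr7:126463024-126463323 on the minus strand, is given as that of the member with the widest differences. The capitals mark a CAGCTG match that begins 55 bases before the start.
Atp2a1: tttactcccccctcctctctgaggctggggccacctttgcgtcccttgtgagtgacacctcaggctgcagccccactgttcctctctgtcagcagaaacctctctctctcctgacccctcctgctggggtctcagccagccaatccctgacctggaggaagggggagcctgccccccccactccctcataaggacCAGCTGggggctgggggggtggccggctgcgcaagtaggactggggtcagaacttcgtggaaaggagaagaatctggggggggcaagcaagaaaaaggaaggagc

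Atp2a2 encodes SERCA2, the pump of slow fibres, heart and, in another splice form, of most other cells. Its signals were 173 and 36.2 on the J arrays against 287 and 76.0 on the NJ arrays (99570_s_at), between the 9.72 and 43.8 percentiles of brightness on their arrays. Within each number format the J array was the lower one, but the groups overlapped because the 1a arrays were the high ones. The difference was −0.72 ± 0.83 (95% interval −2.60 to 1.15, limma adjusted p = 0.9998), with −0.67 in the full-digit pair and −0.78 in the rounded pair. Smooth muscle and pericyte markers, cells that also express Atp2a2, had 8 of 8 members higher and 0 lower in J, none past the test, where 49.2% of all probe sets were higher. Their median difference was 0.46, with 0.11 in the full-digit pair and 0.56 in the rounded pair, and they summed to 7369 to 9622 in J against 4217 to 8752 in NJ. In the full-digit pair Myh11 (−0.68), Rgs5 (−0.05) and Acta2 (−0.03) were lower in J. Depending on the array left out, the sign turned for Myh11, Rgs5, Tagln, Acta2, Smtn and Pdgfrb, but not for Cnn1 or Mylk. The part of such cells in the Atp2a2 signal was not tested.

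Clcn1, the chloride channel that holds the fibre membrane near its resting potential, had 2 probe sets of which 1 was bright enough to test. That probe set, 95376_at, had signals of 654 and 1345 on the J arrays against 662 and 1464 on the NJ arrays. As for Fkbp1a, J 1c and NJ 1d were the high arrays. The difference was −0.13 ± 0.61 (95% interval −1.50 to 1.24), with −0.06 in the full-digit pair and −0.20 in the rounded pair. The other, 102622_r_at, had signals of 189 and 87.6 on the J arrays against 77.7 and 37.9 on the NJ arrays. Here both J arrays were above both NJ arrays, and the difference was 0.82 or 1.76-fold, but at 12.5 to 34.2 percentiles of brightness the probe set was below the limit for testing. Its suffix _r_at marks a set for which the manufacturer relaxed its probe selection rules.

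The promoter of Clcn1, chr6:42286435-42286734 on the plus strand, is given because its MEF2 match, in capitals, begins 51 bases before the start and contains the TATAAA match of this promoter.
Clcn1: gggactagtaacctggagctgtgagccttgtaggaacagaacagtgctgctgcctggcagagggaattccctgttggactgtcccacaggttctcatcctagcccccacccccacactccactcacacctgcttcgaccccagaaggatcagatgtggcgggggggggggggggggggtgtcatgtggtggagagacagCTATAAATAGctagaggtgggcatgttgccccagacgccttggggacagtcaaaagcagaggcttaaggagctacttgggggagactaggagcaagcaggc

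**Figure D2:**
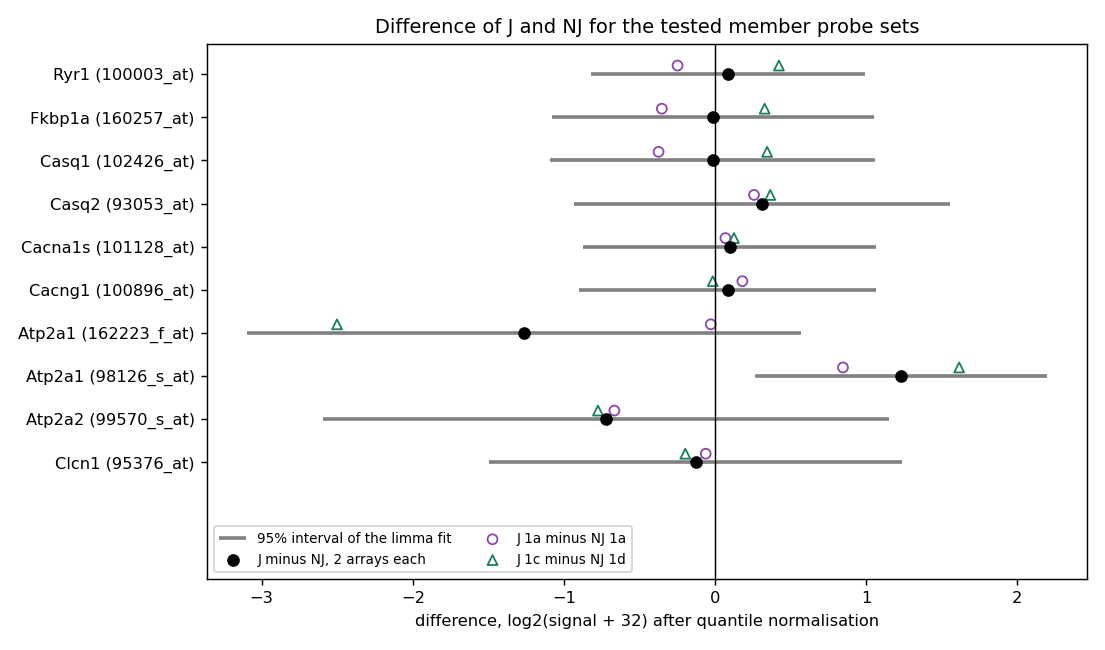
Difference of J minus NJ (log2) for the 10 tested member probe sets, with the mean over 2 arrays a group in black and the 95% interval of the limma fit in grey. Open circles are J 1a minus NJ 1a and open triangles J 1c minus NJ 1d. The interval of Atp2a1 (98126_s_at), 0.26 to 2.20, does not include 0 in this setting, before adjustment, and includes it without normalisation between arrays (unadjusted p = 0.162) and without NJ 1d (0.243).

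The design also allows the balance of fast and slow isoforms to be compared as a ratio. A shift of equal size for both isoforms of an array cancels in it. A shift that depends on brightness, such as the lower bright end of J 1c, does not. Casq1 lay between the 99.6 and 99.8 percentiles of brightness and Casq2 between the 63.5 and 71.4. Atp2a1 (162223_f_at) lay between the 98.5 and 99.96 percentiles, and Atp2a2 between the 9.72 and 43.8. The log2 ratio of Casq1 over Casq2 signals was 5.74 and 5.82 on the J arrays against 6.38 and 5.84 on the NJ arrays. Both J arrays were lower than both NJ arrays. The difference was −0.33 (exact permutation test, two-sided p = 0.333, the smallest possible here), with −0.63 in the full-digit pair and −0.02 in the rounded pair, and it was −0.92 without normalisation between arrays. It was −0.34 when 1 was added in place of 32 (exact permutation p = 0.333) and −0.30 when 100 was added (exact permutation p = 0.667). The ratio of Atp2a1 over Atp2a2 depended on the probe set. With 162223_f_at it was 8.95 and 7.34 on the J arrays against 8.31 and 9.07 on the NJ arrays, a change of −0.54 (exact permutation p = 0.667). With 98126_s_at it was 7.67 and 8.97 on the J arrays against 6.15 and 6.58 on the NJ arrays, a change of 1.95 (exact permutation p = 0.333). The Atp2a2 signals of 36.2 and 76.0 on J 1c and NJ 1d are near the added 32, so these ratios depend on it: with 162223_f_at the change was −0.30 when 1 was added and −0.78 when 100 was added. The ratio of 2 probe sets is not a ratio of transcripts, so only its change between arrays can be read.

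Set by number format, no member passed the adjusted test either. Values of J 1c and NJ 1d minus those of the 1a arrays had a median absolute size of 0.80 over the members and of 0.52 over all probe sets tested. The same median for J minus NJ was 0.11 and 0.39, as above. In 6 of the 10 members both arrays of one format lay above both of the other, against 45.8% of all probe sets. Clcn1 differed by 1.12 ± 0.50 at 95376_at and Fkbp1a by 0.89 ± 0.35, both higher on J 1c and NJ 1d. Cacna1s differed by −0.79 ± 0.33, Cacng1 by −0.81 ± 0.33, Atp2a2 by −1.21 ± 0.75 and Atp2a1 by −1.63 ± 0.47 at 162223_f_at, all lower there. At an unadjusted p under 0.05, limma gave 5 of these differences, against 13.7% of all probe sets. At an adjusted p under 0.05 it gave 0 members, against 1.47%. The full-digit arrays are also the ones labelled 1a, so format and replicate label cannot be told apart. Fitting it as a term left no member past the test for J against NJ (limma, smallest adjusted p = 0.444), against 0.0859% of all probe sets called in either direction. The sign of J minus NJ was positive in both formats for 3 members (background 24.9%), negative in both for 3 (background 24.5%) and mixed for 4 (background 50.4%).

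**Figure D3:**
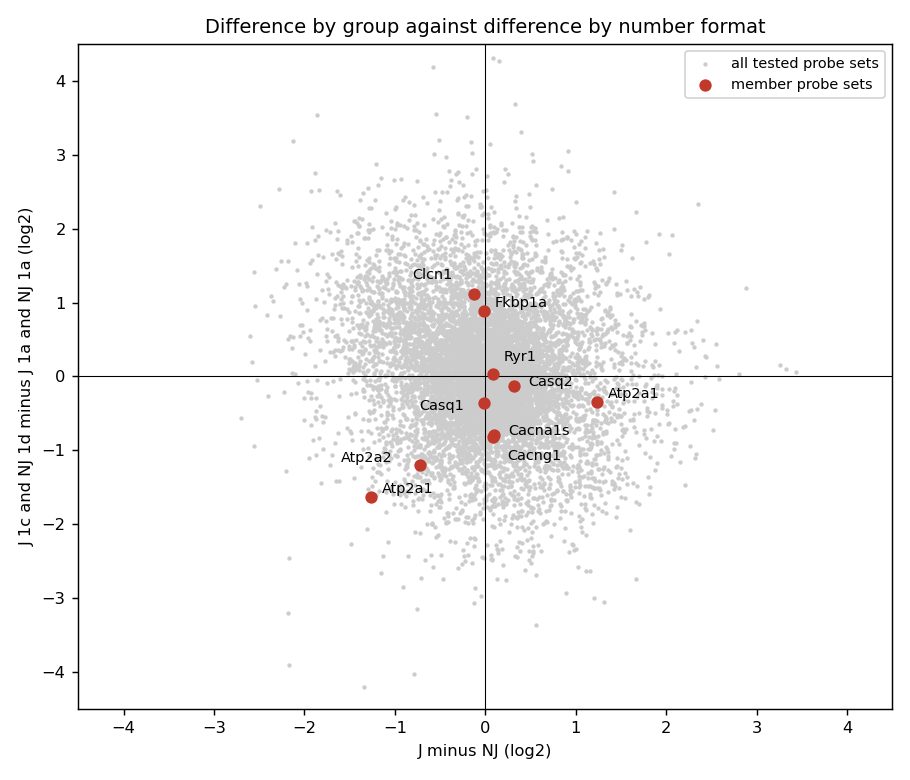
Difference of J minus NJ (horizontal, log2) against the difference of J 1c and NJ 1d minus J 1a and NJ 1a (vertical, log2), with all 9316 tested probe sets in grey and the 10 member probe sets in red. Most members lie near 0 on the horizontal axis, with a median of 0.03, and spread from −1.63 to 1.12 on the vertical one.

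The other genes of calcium handling and excitability gave no call either. Of 86 such genes in 3 lists 51 were measured and 45 tested, with 24 higher and 21 lower in J, a median difference of 0.01 and none past the test. At an unadjusted p under 0.05 limma gave 1 of them, or 2.22%, where the background was 1.25% higher and 0.88% lower. In the triad and sarcoplasmic reticulum list 7 were higher and 9 lower (18 of 35 measured, 16 tested, median −0.04). This split turned to 12 higher and 4 lower without J 1c (median 0.29), and to 10 higher and 6 lower without NJ 1a (median 0.17). In the list of calcium binding and signalling 12 were higher and 5 lower (19 of 30 measured, 17 tested, median 0.13). Leaving out NJ 1d turned this to 6 higher and 11 lower (median −0.21). In the list of sarcolemma excitability 5 were higher and 7 lower (14 of 21 measured, 12 tested, median −0.04), and without NJ 1d 4 higher and 8 lower (median −0.28). No direction of a list can be read from these medians.

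The gene with the smallest p among these was Nfatc1, a calcineurin-dependent transcription factor that links calcium to fibre type genes. Its signals were 448 and 221 on the J arrays against 37.4 and 38.4 on the NJ arrays (102209_at). Both NJ signals were dim. On NJ 1a a higher signal of 77.7 lay at the 16.1 percentile of brightness, and on NJ 1d one of 76.0 at the 23.5 percentile. Nfatc1 thus passed the filter for testing through its J arrays. Its NJ signals are also near the constant added before taking log2, so the size of its difference depends on that constant. Both J arrays lay above both NJ arrays, as in 13.6% of all probe sets tested. The difference was 2.27 ± 0.76 (limma unadjusted p = 0.015, adjusted p = 0.9998), with 2.83 in the full-digit pair and 1.71 in the rounded pair. Others of that list were Calm2, a calmodulin gene, at 0.91 ± 0.78, Atp2b2, a calcium pump of the plasma membrane, at −0.92 ± 0.77, and Slc8a1, the sodium-calcium exchanger, at −1.42 ± 1.11. Slc8a1 rested on 1 array, with signals of 73.3 and 1475 on the J arrays against 992 and 866 on the NJ arrays.

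Of the triad list, Bin1, which shapes transverse tubules, had signals of 25078 and 25765 on the J arrays against 20288 and 23087 on the NJ arrays. These differ by 0.86 ± 0.48 after quantile normalisation but by 0.23 without it, and the normalised difference was 0.33 in the full-digit pair and 1.39 in the rounded pair. Cacnb2, another calcium channel beta subunit, had 937 and 838 on the J arrays against 748 and 154 on the NJ arrays, which differ by 1.17 ± 0.73 and by 0.26 without NJ 1d, the low array. Fkbp1b, the FKBP12.6 that binds the cardiac ryanodine receptor, had 1615 and 627 on the J arrays against 544 and 498 on the NJ arrays. Its difference of 0.90 ± 0.61 was 1.58 in the full-digit pair and 0.22 in the rounded pair. With each array left out it ranged from 0.27 to 1.51. Homer1, a scaffold protein, differed by −0.99 ± 0.76. Of the excitability list, Clcn3, an endosomal chloride transporter, had signals of 582 and 4635 on the J arrays against 5481 and 4629 on the NJ arrays, which differ by −1.65 ± 0.79 and are low on J 1a alone. Clcn2, another chloride channel, had 123 and 112 on the J arrays against 687 and 112 on the NJ arrays, so that its difference of −1.23 ± 0.90 rests on NJ 1a and is −0.21 without it. Atp1b1, a beta subunit of the sodium pump, had 187 and 878.5 on the J arrays against 991 and 813 on the NJ arrays, and its difference of −1.18 ± 0.79 is −0.06 without J 1a. Kcnj11, the pore of the ATP-sensitive potassium channel, differed by 0.76 ± 0.95 in all, by 2.20 without NJ 1d and by −0.76 without NJ 1a. None of these passed (limma adjusted p = 0.9998 for each).

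**Figure D4:**
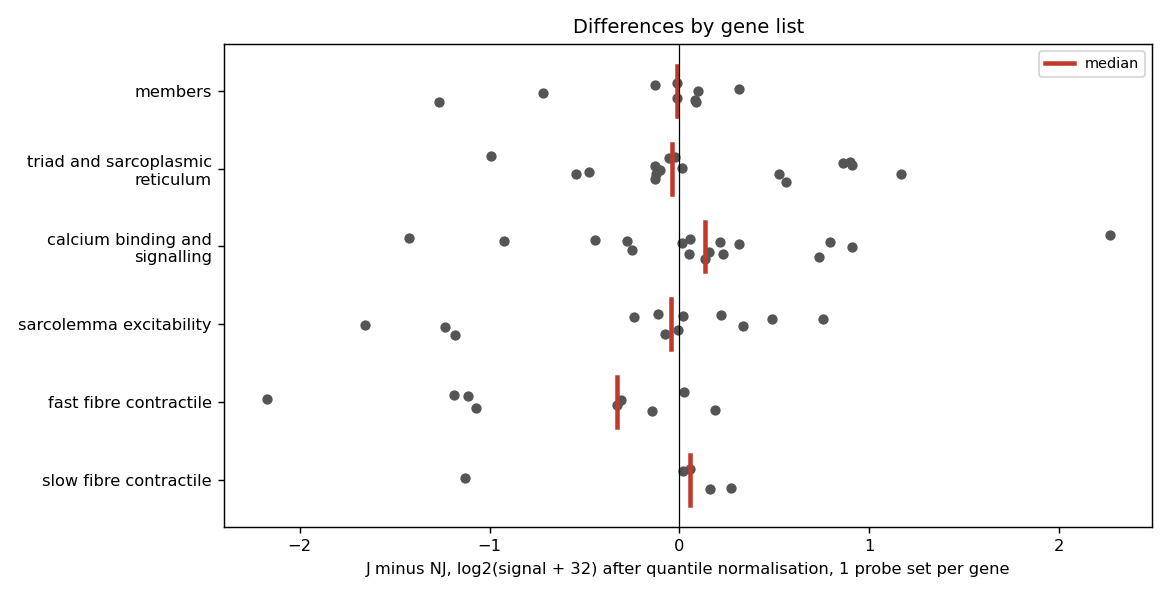
Difference of J minus NJ (log2) for each tested gene of the members, of the other 3 lists of calcium handling and excitability, and of the fast and slow fibre contractile lists, 1 probe set per gene (the brightest), with a red bar at each median. The medians of the 3 lists lie between −0.04 and 0.13.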

How the data were processed

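The authors deposited a linear intensity for each probe set on each array, and how it was computed is not given in the sources used here. Columns have similar trimmed means, so the arrays had been scaled. Of 12488 probe sets, 66 controls were left out. Intensities were taken as log2(value + 32) and quantile normalised over the 4 arrays. The 9316 probe sets whose mean lay above the 25 percentile were tested with limma 3.58.1 in R 4.3.3 (intensity trend in eBayes, residual degrees of freedom 2) and Benjamini-Hochberg adjustment over all of them. The scripts were tested on simulated data. Names come from GEO's gene table for the platform (10833 probe sets with 1 symbol), and promoters come from RefSeq GRCm38.p6. The sources name no genome build for the array. Lists use the brightest probe set per gene. All probe sets of the members are named, and the 4 genes with the smallest p of each other list. Members, lists and alternatives were chosen with earlier results of these data known. Figures used matplotlib 3.10.9 in Python 3.11.15.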

Additional observations from a re-analysis of the deposited data

How the results depend on the processing

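No member passed limma in any of the settings tried. No paired analysis was possible by replicate label, because J and NJ share only 1a, and the number format, which pairs the arrays in another way, was fitted as a term instead. The probe sets called over the whole table were 0 higher and 0 lower in J, and 4 higher and 4 lower with the number format term, which leaves 1 residual degree of freedom. At an unadjusted p under 0.05 the counts were 116 higher and 82 lower. They were 257 and 298 with that term, 301 and 574 without J 1c, and 70 and 27 without NJ 1a. Leaving out each array in turn gave a members' median difference of −0.15 to 0.26. Members split into 4 higher and 5 lower without normalisation between arrays and 3 higher and 6 lower with median centring, with Atp2a2 then below the filter. Ryr1 turned to −0.25 without normalisation and −0.31 with median centring, where Cacna1s was −0.0015. With each array left out, Ryr1 ranged from −0.10 to 0.25, Casq1 from −0.40 to 0.29, Fkbp1a from −0.63 to 0.61, Cacna1s from −0.30 to 0.51, Cacng1 from −0.38 to 0.55, Clcn1 from −0.74 to 0.46 and Atp2a1 (162223_f_at) from −2.42 to 0.20. The ratio of Atp2a1 over Atp2a2 changed by 0.70 with the mean of both Atp2a1 probe sets, and by −1.07 to 0.29 with each array left out. The causes were not tested. The filters, the variance trend and the number format term do not enter the isoform ratios. The change of Casq1 over Casq2 was −0.61 to −0.11 with each array left out. The number of arrays limits the precision, and apart from Atp2a1 the members' 95% intervals reached down to −2.60 and up to 1.56.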

Other observations

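Among the 45 pairs of tested member probe sets, profiles over the 4 arrays were compared by the root mean square distance of values centred on each probe set's mean. Cacna1s and Cacng1, 2 subunits of 1 receptor, were the closest pair at 0.065. Both were low on J 1c and NJ 1d, and 45.8% of all probe sets tested split by number format without overlap. Ryr1 with Casq2 (0.198) and with Casq1 (0.202) ranked 2 and 3. Clcn1 (95376_at) and Fkbp1a, at 0.241, ranked 4, and both were high on J 1c and NJ 1d. The 2 probe sets of Atp2a1 were the farthest pair of all, at 1.62. With 4 arrays these distances are descriptions only.

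The genes closest to the mean profile of the members, by the same distance over 4 arrays and among 6764 other genes, were Foxred1 (0.020), Gm5364 (0.022) and Erp29 (0.023). That mean profile was 0.09 on J 1a and −0.27 on J 1c against 0.23 on NJ 1a and −0.05 on NJ 1d (log2). Its J 1c value rests largely on Atp2a1 at 162223_f_at, with a normalised 13.57 there against 16.08 to 16.47 on the other arrays. The nearest genes are thus not evidence of a profile shared by the members.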
